A study of Mus musculus with 6 samples.

Results

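Endothelial cells, the lining of blood and lymphatic vessels, were picked from single-cell RNA libraries of embryonic mouse skin by a rule on transcripts. Each transcript molecule was counted by its UMI, a random tag added before amplification. A cell belonged to the set if it showed 500 or more genes, no more than 10% of mitochondrial UMIs, at least 8 UMIs over Pecam1, Cdh5, Kdr, Egfl7 and Cldn5 with at least 3 of those 5 genes detected, at most 3 UMIs over the keratin genes Krt5 and Krt14, and at most 5 over the macrophage genes C1qa, C1qb and C1qc. Of 40653 cells that passed the quality limits, 328 met the rule.

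The libraries, built in droplets and read from the 3′ side of each transcript, came from dorsolateral and flank skin of embryos on a CD1 background. Skin of several embryos was pooled per library, dissociated with trypsin and sorted for cells that exclude DAPI. The loss-of-function (LOF) embryos had the genotype PDGFRalphaCreER(Lo);beta-catfl/fl;mTmG, with 1 library at embryonic day (E) 14.5 and 1 at E13.5. Controls were labelled WT, with 2 libraries at E14.5 and 2 at E13.5.

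The CreER of the LOF line is driven from Pdgfra, a gene of mesenchymal cells, and its recombination of the beta-catenin gene is started by tamoxifen, given in a single oral dose at E11.5. The mTmG reporter turns from tdTomato to eGFP in a cell where Cre has acted. The treatment text stands on every sample and names the CreER mice; whether control dams received tamoxifen is not given in the sources used here. The embryos of a pool were not labelled, so the library was the replicate. The p-values rest on the spread between libraries, taken partly over all genes, and almost wholly so in the interaction tests below. Nothing in the labels says that the control pairs came from separate litters.

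Endothelial cells form as a primitive plexus under VEGF, which acts through the receptor Kdr, while Flt1 holds VEGF back. Notch signals favour an arterial fate, the nuclear receptor Nr2f2 a venous fate, and Prox1 turns a share of venous cells into lymphatic endothelium. In developing skin the plexus is remodelled into a branched network while pericytes, recruited by endothelial Pdgfb, attach to it.

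Promoters of endothelial genes were read for a feature that the rule did not use. The core of the binding motif of ETS factors such as Erg and Fli1, here the letters AGGAAG or its complement CTTCCT on either strand, was sought from 250 bases before to 50 bases after the start site. The promoters of 12 of 20 endothelial identity genes outside the rule were found in RefSeq's table (GRCm38.p6). Of their 13 promoter windows 9 held the motif (69.2%), against 11613 of all 32851 windows of that length (35.4%). The motif stood in 6 of 16 windows of endothelial transcription factors (37.5%), 3 of 11 of arterial genes (27.3%) and 1 of 8 of lymphatic genes (12.5%). A match describes the letters only. The windows of Tie1, an orphan receptor of endothelium, Emcn, a surface sialoprotein of veins and capillaries, and Robo4, a guidance receptor of endothelium, are shown. These genes belong to the identity list, whose members were all above 4 other classes of skin cells, as given below. Capitals mark the motif, and each window is written 5′ to 3′ on the gene's strand. They lie at chr4:118489800-118490099 (minus strand), chr3:137340828-137341127 (plus strand) and chr9:37401722-37402021 (plus strand).
Tie1: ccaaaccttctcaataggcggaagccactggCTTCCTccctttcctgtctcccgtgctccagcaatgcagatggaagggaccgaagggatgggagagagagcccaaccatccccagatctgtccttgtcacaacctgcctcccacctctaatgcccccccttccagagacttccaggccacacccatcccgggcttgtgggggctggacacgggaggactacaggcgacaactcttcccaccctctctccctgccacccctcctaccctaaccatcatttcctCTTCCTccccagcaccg
Emcn: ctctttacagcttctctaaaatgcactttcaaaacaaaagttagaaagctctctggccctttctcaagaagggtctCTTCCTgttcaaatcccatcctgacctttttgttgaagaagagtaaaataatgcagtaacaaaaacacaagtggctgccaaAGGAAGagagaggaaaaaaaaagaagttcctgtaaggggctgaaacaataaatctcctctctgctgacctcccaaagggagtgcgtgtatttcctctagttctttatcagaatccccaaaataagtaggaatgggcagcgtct
Robo4: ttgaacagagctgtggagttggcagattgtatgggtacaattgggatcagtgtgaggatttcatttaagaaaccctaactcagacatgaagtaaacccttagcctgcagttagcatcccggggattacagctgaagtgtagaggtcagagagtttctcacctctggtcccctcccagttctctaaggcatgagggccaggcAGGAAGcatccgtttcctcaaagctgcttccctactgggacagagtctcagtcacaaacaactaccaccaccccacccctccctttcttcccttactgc

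The 328 cells came from all 6 libraries. LOF skin gave 76 at E14.5 and 34 at E13.5, E14.5 controls 81 and 34, and E13.5 controls 39 and 64. Their summed UMIs ran from 400725 to 1115547 per library, with a median of 10342 UMIs or more per cell. Their share of kept cells was 0.852% in E14.5 LOF (exact 95% binomial interval 0.672 to 1.07%) and 0.514% in E13.5 LOF (0.356 to 0.717%). Controls had 1.29% and 0.581% at E14.5, against 0.560% and 1.06% at E13.5. The control libraries of 1 stage differed more from each other than the stages did on average, and 2 against 2 libraries cannot give an exact two-sided permutation p below 0.333. The intervals cover counting error only, and a share also depends on how the skin was dissected and sorted. Just inside the rule stood 1 cell with 8 UMIs of the 5 genes, just outside it 1 cell with 7, and the median over the members of a library lay between 26 and 45 UMIs.

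Some libraries stood apart, and for most of the genes named by stage and genotype values without them are given below. E14.5 LOF and E14.5 control 1 differed from the other 4 libraries in a group of transcripts that moved alike in all cell classes. In endothelial cells Gm42418, an RNA that overlaps ribosomal RNA sequence, had 2732 and 2423 UMIs per 1000000 (CPM) in those 2 libraries, against 74.3 to 122 in the other 4. The histone gene Hist1h1b had 598 and 524 CPM, against 9.98 to 22.6. Igf2, a fetal growth factor, had 3388 and 3471 CPM, against 369 to 466. Replicate 2 of both controls, labelled WT, carried eGFP transcripts in mesenchymal cells, as given below. Between 44 and 101 cell barcodes were shared by each of the 15 pairs of libraries. Of the 328 cells 39 held at least 10 UMIs of marker genes of another cell type, mostly mesenchyme. The red cell list, mainly haemoglobin genes, was not among the 9 lists of that count: 6 cells of E13.5 LOF, 2 of E14.5 control 2 and 4 of E13.5 control 2 held at least 10 of its UMIs. Nor was the melanoblast list, which 1 cell of E14.5 control 1 met.

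The label endothelial held on genes that the rule did not use. Of 10 endothelial markers outside the rule (Tie1, Tek, Emcn, Esam, Ecscr, Clec14a, Robo4, Erg, Sox18 and Ramp2), 314 of the 328 cells had at least 3, the median cell had 7, and 20 cells had all 10. All 20 genes of a wider identity list were higher in endothelial cells than in each of 4 other classes, by at least 5 times on the mean over libraries. Those classes were 12760 mesenchymal cells, 7152 keratinocytes, 585 macrophages and 450 pericytes of the same libraries, taken by rules on their own genes. Since cells were chosen by contrast with other cells, these levels are a description, with no test.

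Among junction proteins, Esam, which holds endothelial cells to each other, had 337 and 370 CPM in E14.5 and E13.5 LOF cells, 265 and 332 in E14.5 controls and 494 and 222 in E13.5 controls. Its mean in mesenchymal cells was 0.632 CPM and in pericytes 37.1. Emcn had 238 and 351 CPM in E14.5 and E13.5 LOF cells, 194 and 202 in E14.5 controls and 332 and 246 in E13.5 controls, against a pericyte mean of 17.1. No library of another class reached the lowest endothelial library for either gene. Plvap, which forms the diaphragms of fenestrated capillaries, had 278 and 544 CPM in E14.5 and E13.5 LOF cells, 230 and 202 in E14.5 controls and 487 and 271 in E13.5 controls. Ramp2, the partner of the adrenomedullin receptor, was the identity gene with the highest mean in mesenchymal cells, at 65.1 CPM, against 443 CPM in endothelial cells.

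Genes were ranked by their lowest ratio, over the 6 libraries, of endothelial cells to the highest other class after adding 5 CPM. Of 2885 genes with a mean of at least 50 CPM in endothelial cells, 8 reached at least 16 times in every library. Of these, 4 were rule genes (Pecam1, Cldn5, Kdr and Cdh5). The others were Sox17, a transcription factor of arteries, Myct1, Rasip1, which is needed to open the vessel lumen, and Gpihbp1, which carries lipoprotein lipase across capillaries. Sox17 averaged 155 CPM in endothelial cells, against at most 0.722 CPM as the mean of another class, in macrophages. Gpihbp1 averaged 180 CPM against 1.87 CPM in macrophages. Icam2, Tmem255a, Klhl4, Gimap4 and Tie1 followed in rank among named genes.

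**Figure D1:**
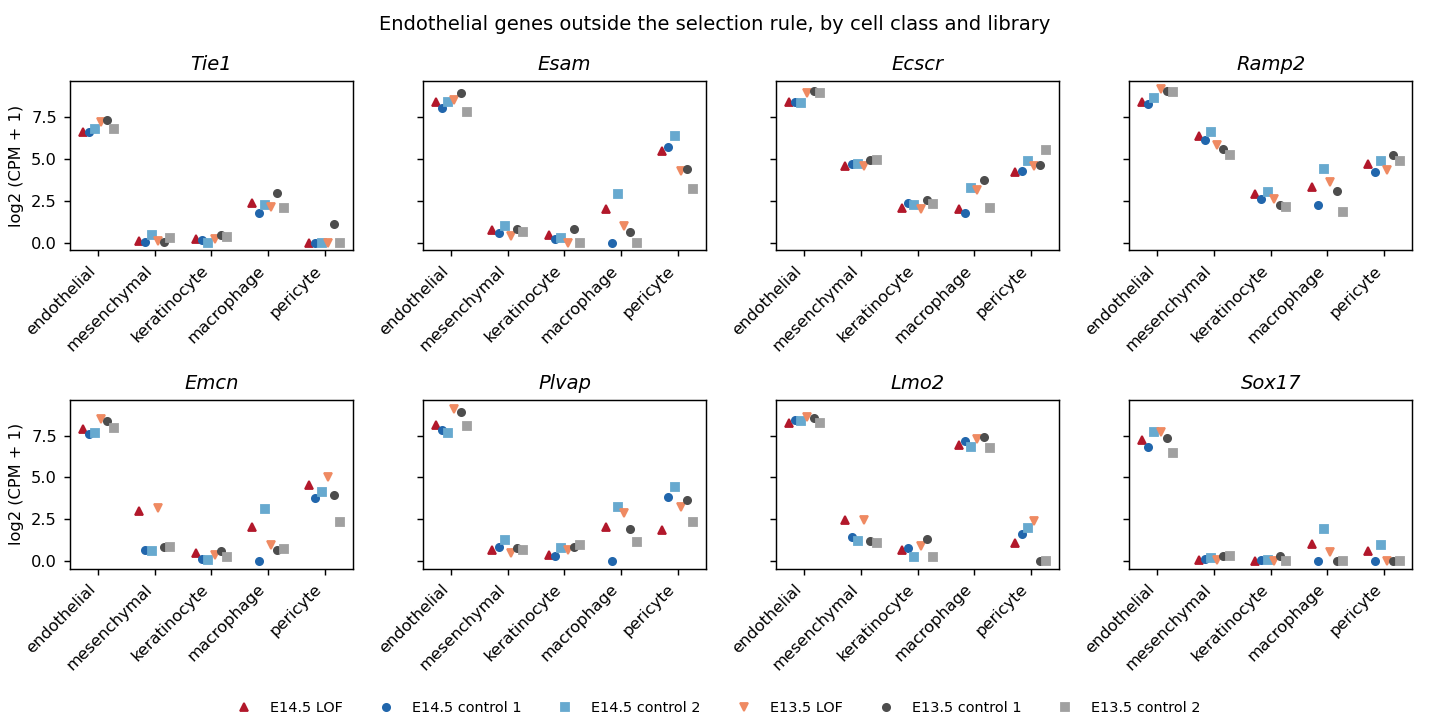
Level of 8 endothelial genes that the rule did not use, as log2 (CPM + 1), in endothelial, mesenchymal, keratinocyte, macrophage and pericyte cells. Each point is 1 library, and for each gene all 6 endothelial points lie above every point of the mesenchymal cells and keratinocytes.

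Of 20 endothelial transcription factors, 17 were above all 4 other classes, and 9 by at least 5 times. The 3 exceptions were Lyl1 and Mef2c, whose means were higher in macrophages (117 and 471 CPM, against 39.2 and 223 CPM in endothelial cells), and Foxc2, at 3.03 CPM in endothelial cells and 9.20 CPM in pericytes. Lmo2, a bridge in complexes with Tal1, averaged 338 CPM in endothelial cells and 135 CPM in macrophages. Sox7 averaged 82.7 CPM in endothelial cells and at most 0.257 CPM in the other classes. The ETS genes Erg and Fli1 averaged 68.8 and 156 CPM, and Fli1 stood at 81.0 CPM in macrophages.

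The VEGF receptors Kdr and Flt1 were high, and the ligand genes Vegfa and Figf low. Kdr, a gene of the rule, had 554 and 353 CPM in E14.5 and E13.5 LOF cells, 567 and 332 in E14.5 controls and 382 and 334 in E13.5 controls. Flt1, the decoy receptor, had 288 and 123 CPM in the LOF cells, 238 and 115 in E14.5 controls and 127 and 58.4 in E13.5 controls. In both genes E14.5 LOF and E14.5 control 1 were the high libraries, and the E14.5 and E13.5 ranges of Flt1 overlapped. The co-receptor Nrp1 averaged 300 CPM in endothelial and 352 CPM in mesenchymal cells, so it was no mark of endothelium here. Vegfa had 0 to 8.21 CPM in endothelial libraries, against a mean of 20.8 CPM in mesenchymal cells, and Figf, the gene of the ligand VEGF-D, had 0 to 9.98 CPM against 62.4 CPM. The 5 ligand genes in the data summed to 74.4 to 97.3 CPM in endothelial libraries. The sums were 121 to 194 CPM in mesenchymal cells and 35.5 to 71.1 CPM in keratinocytes. In the subgroups described below, the ligand gene Vegfc had 171 CPM in arterial-like cells and Pgf 85.5 CPM in lymphatic-like cells. Levels were compared between cell classes within a gene, since 3′ counts do not rank genes by molecules per cell.

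In the Tie pathway, Tek, the receptor of angiopoietins, averaged 57.6 CPM in endothelial cells and 5.87 CPM in mesenchymal cells. Its activating ligand Angpt1 was at 0 to 2.5 CPM in endothelial libraries and averaged 37.5 CPM in pericytes. Angpt2, the ligand that endothelium makes itself, had 12.4 to 34.1 CPM in endothelial libraries.

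Of 13 Notch genes listed, 5 were higher in endothelial cells than in all 4 classes. Dll4, the ligand of arterial and sprouting cells, had 51.5 and 73.9 CPM in E14.5 and E13.5 LOF cells, 56.5 and 107 in E14.5 controls and 85.2 and 39.8 in E13.5 controls, against at most 0.911 CPM as the mean of another class. Nrarp, a feedback target of Notch, had 191 and 228 CPM in the LOF cells, 166 and 165 in E14.5 controls and 234 and 84.9 in E13.5 controls. For both genes the library ranges of the stages and of the genotypes overlapped. Heyl was at 0 in 4 of the 6 endothelial libraries and averaged 120 CPM in pericytes.

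Endothelial cells sent and lacked particular signals. Apln, a peptide of sprouting tips, averaged 114 CPM, against 6.03 CPM in mesenchymal cells, and its receptor Aplnr 223 CPM against 0.472 CPM. Pdgfb, the recruiter of pericytes, had 50.5 and 24.6 CPM in E14.5 and E13.5 LOF cells, 43.0 and 7.49 in E14.5 controls and 45.9 and 11.9 in E13.5 controls. It was lower in replicate 2 than in replicate 1 of both control groups. Cxcl12 averaged 27.7 CPM in endothelial cells, under the 226 CPM of mesenchymal cells. Mfsd2a, a lipid transporter of the mature blood-brain barrier, and Bmp6 had 0 UMIs in all 328 cells, which allows a level of up to 0.717 CPM over their 4185192 UMIs. Cldn5, another barrier gene and part of the rule, had 852 to 1076 CPM.

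Clustering of the 328 cells alone gave 5 subgroups, described by genes that the clustering itself used and so without a test. Subgroup 1 held 87 cells and was lymphatic-like, with Prox1 at 320 CPM, against 0 to 3.81 CPM in the other subgroups, Lyve1 at 651 CPM, against at most 0.849, and Reln at 168 CPM, against at most 0.937. A Ccl21a gene, for a chemokine of lymphatic vessels, stood at 7375 CPM against 10.4 CPM in the rest, but the locus has near-identical copies between which counting could split reads. Ptx3, Thy1 and Nts were also among its leading genes. Emcn and Plvap, at 48.2 and 81.6 CPM, were lowest there. So were the identity genes Esam (0 CPM, against 232 to 687 CPM in the other subgroups), Clec14a (1.97 CPM) and Robo4 (15.7 CPM). Tie1, Erg, Ecscr and Ramp2 were not lowest there. The part of this subgroup's share in the library levels of such genes was not tested.

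Subgroup 4 held 60 cells and was arterial-like. The gap junction genes Gja4 and Gja5 had 1446 and 329 CPM, against at most 149 and 1.70 CPM in the others. Hey1, Dll4, Efnb2 and Sox17 had 296, 226, 229 and 482 CPM, the highest of the 5 subgroups, and Gkn3, Stmn2, Igfbp3 and Dkk2 also led. So did the haemoglobin genes Hbb-bs (833 CPM, against 67.2 CPM in the rest) and Hba-a2 (243 against 11.1 CPM), and Myog of muscle (118 against 4.82 CPM). The part of RNA from other cell types in these levels was not tested. Cycling genes were low in subgroup 4, with Mki67 at 15.2 CPM, against 59.9 to 396 CPM elsewhere. At least 2 UMIs over 6 cycling genes were found in 9 of its 60 cells, against 51 of 87, 55 of 85, 63 of 78 and 17 of 18 in subgroups 1, 2, 3 and 5.

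Subgroups 2 and 3 were left unnamed. Subgroup 2 (85 cells) led with Aplnr at 429 CPM, Emcn at 465 CPM and Plvap at 530 CPM, genes known in veins, capillaries and fenestrated capillaries, and with Kcne3 at 61.8 CPM. Subgroup 3 (78 cells) shared Aplnr (337 CPM) and Emcn (319 CPM) and led with Fabp4, a fatty acid carrier, at 1045 CPM and Cd36, a fatty acid transporter, at 346 CPM, but also with histone genes and Gm42418. It came from 2 libraries only, 45 cells of E14.5 LOF and 33 of E14.5 control 1, the pair that stood apart. Those libraries gave 1 and 2 cells to subgroup 2, which took 12 cells of E14.5 control 2, 20 of E13.5 LOF and 21 and 29 of the E13.5 controls. Subgroup 5 held 18 cells, all with at least 10 UMIs of another cell type. It led with Col1a2, Meg3 and Col1a1, and Col1a1 was at 1798 CPM, against 35.6 to 86.5 CPM in the others.

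**Figure D2:**
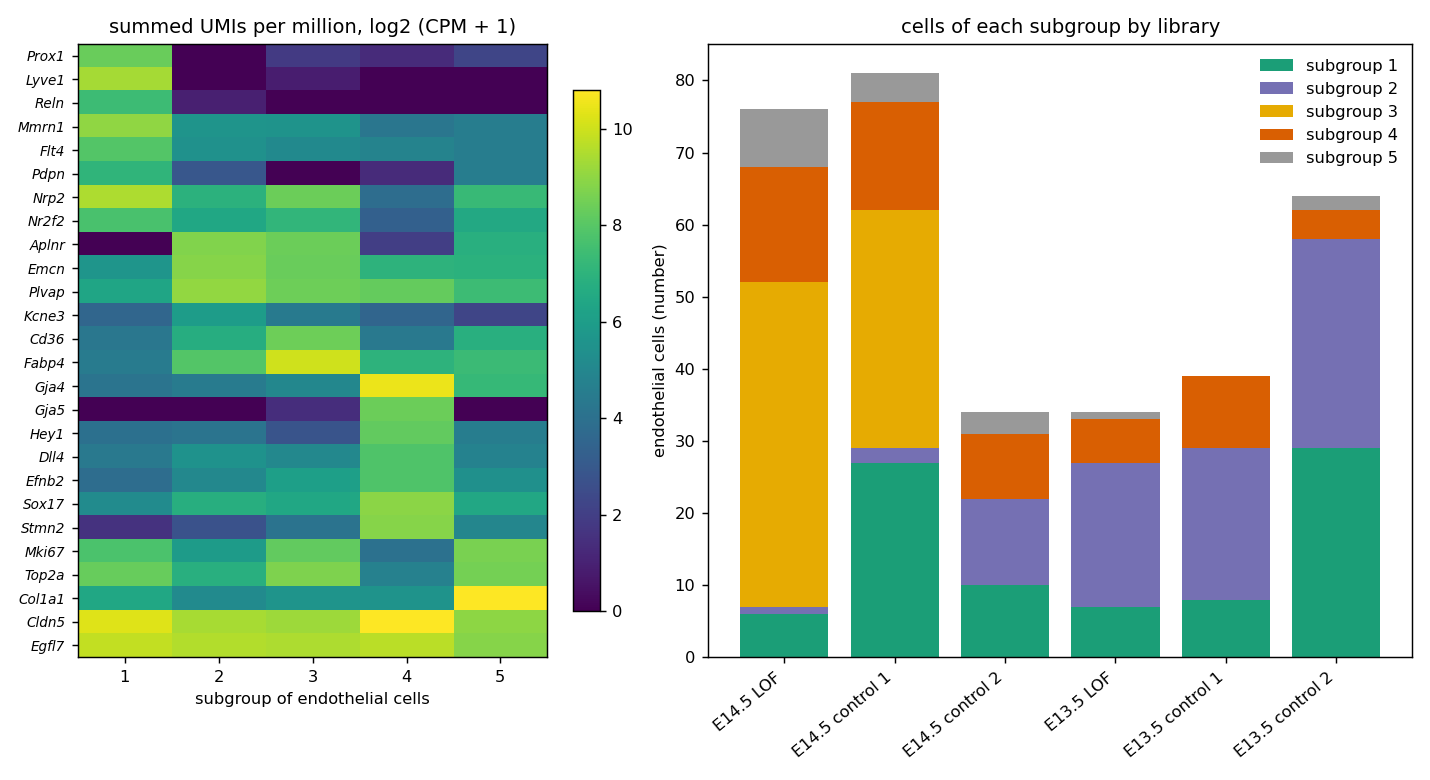
Left, log2 (CPM + 1) of marker genes in the 5 subgroups of endothelial cells; right, the number of cells of each subgroup in each library. Subgroup 3 is found in E14.5 LOF and E14.5 control 1 only.

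Vessel types were also counted per library by fixed gene combinations, which needed no clustering. Cells with Prox1 and at least 1 of Lyve1, Reln, Mmrn1 and Flt4 were 9.21% and 14.7% of endothelial cells in E14.5 and E13.5 LOF skin, 32.1% and 29.4% in E14.5 controls and 17.9% and 32.8% in E13.5 controls. Both LOF libraries were below all 4 control libraries. With each cell thinned to 3000 UMIs the shares were 7.89% and 2.94% in the LOF libraries, 23.5% and 17.6% in E14.5 controls and 12.8% and 14.1% in E13.5 controls. Both LOF libraries were again below all controls, but E13.5 LOF, with 1 of 34 cells, was then below E14.5 LOF. Mesenchymal cells, which should lack the combination, had it in at most 0.0869% of cells. In E14.5 LOF the share rests on 7 of 76 cells and in E13.5 LOF on 5 of 34, and with 1 LOF library per stage it has no test. At E13.5 the exact 95% intervals of LOF (4.95 to 31.1%) and control 1 (7.54 to 33.5%) overlapped. The lymphatic-like subgroup held 6 of 76 cells in E14.5 LOF, against 27 of 81 and 10 of 34 in E14.5 controls. It held 7 of 34 cells in E13.5 LOF, against 8 of 39 and 29 of 64 in E13.5 controls, so E13.5 LOF and E13.5 control 1 were alike in it.

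Cells with at least 2 of 7 arterial genes were 67.1% and 70.6% in E14.5 and E13.5 LOF skin, 56.8% and 55.9% in E14.5 controls and 69.2% and 50% in E13.5 controls. Thinned, they were 35.5% and 29.4% in LOF skin, 25.9% and 32.4% in E14.5 controls and 30.8% and 21.9% in E13.5 controls. The groups overlapped. Cells with at least 2 of 6 tip genes, those of sprouting fronts, were 46.1% and 35.3% in LOF skin, 33.3% and 38.2% in E14.5 controls and 51.3% and 39.1% in E13.5 controls. Thinned, tip shares were 7.89% in E14.5 and 17.6% in E13.5 LOF skin, and 2.47% and 2.94% in E14.5 against 23.1% and 12.5% in E13.5 controls, so that every E14.5 library was below every E13.5 library. The thinned E14.5 shares rest on 6 of 76 cells in LOF and on 2 of 81 and 1 of 34 cells in controls. With all UMIs that order did not hold. The venous combination was of little use as a mark, since 5.31% to 31.5% of mesenchymal cells had it.

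**Figure D3:**
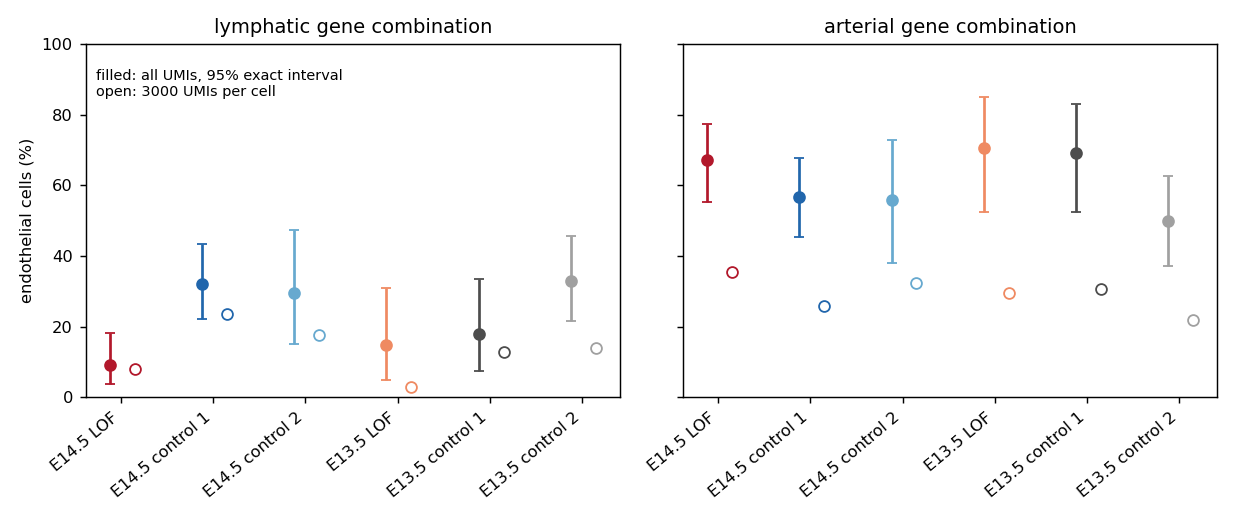
Share of endothelial cells with the lymphatic and the arterial gene combination in each library (%). Filled points use all UMIs, with exact 95% binomial intervals, and open points 3000 UMIs per cell; the lymphatic share is lowest in the 2 LOF libraries at both depths.

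The types were not exclusive by these rules. Of 76 cells with the lymphatic combination 69 also had the venous one and 38 the arterial one. The arterial and venous combinations met in 126 cells, and the arterial and tip combinations in 92. Only 8 of the 328 cells had none of the 4 combinations.

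Between E13.5 and E14.5, endothelial cells of the controls changed little beyond the spread between libraries. UMIs summed over the endothelial cells of each library were compared with edgeR's quasi-likelihood test with Benjamini-Hochberg adjustment over all genes. Of 6409 genes tested 4 passed an adjusted p of 0.05, all higher at E14.5 (0.0624% of genes tested), while 482 had an unadjusted p under 0.05. The median log2 change of all genes was 0.03. The count rested on single libraries, being 31 and 12 without E13.5 control 1 or 2 and 30 and 623 without E14.5 control 1 or 2.

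Of the 4 genes, 3 are genes of mast cell granules, Tpsb2, Cma1 and Cpa3. Cma1 had 0 CPM in E14.5 and 4.11 CPM in E13.5 LOF cells, and in controls 348 and 873 CPM at E14.5 against 2.18 and 1.33 CPM at E13.5. Mast cell transcripts lay in 3 cells of each E14.5 control with at least 10 UMIs of the 5-gene mast list, and no other library had such a cell. The summed level of that list in endothelial cells was 47.4 CPM in E14.5 and 22.6 CPM in E13.5 LOF cells, and in controls 678 and 1472 CPM at E14.5 against 6.55 and 15.9 CPM at E13.5. Without the 39 cells with another type's transcripts no gene passed (edgeR).

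The gene left was Ppp1r15a, which brings back protein synthesis after stress. It had 89.6 CPM in E14.5 and 65.7 CPM in E13.5 LOF cells, and in controls 185 and 170 CPM at E14.5 against 32.8 and 33.2 CPM at E13.5. The stages did not overlap in controls, at a log2 fold change of 2.38 ± 0.36 (SE; edgeR adjusted p = 0.0317). Between the replicate 2 libraries the log2 difference was 2.19 after adding 5 CPM. Mesenchymal cells of the same controls had 109 and 66.7 CPM at E14.5 against 34.0 and 33.6 CPM at E13.5. All 11 tested genes of a stress and dissociation list were higher at E14.5 and 7 had an unadjusted p under 0.05, with a list median of 1.23, yet none passed (Fos 313 and 556 against 103 and 110 CPM, edgeR adjusted p = 0.0986). With all 6 libraries fitted and genotype as a term, Ppp1r15a did not pass (1.63 ± 0.38, edgeR adjusted p = 0.0801). A further term for 3 batches, inferred from the transcripts shared by libraries, joined LOF with control 1 of each stage, and the replicate 2 libraries. Stage then rested on E14.5 control 2 against E13.5 control 2 alone. In that fit Ppp1r15a had a log2 fold change of 2.34. Its adjusted p was 0.0911 without the cells with another type's transcripts, and 0.107 or 0.16 without E13.5 control 1 or 2.

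The next genes by p, none of which passed, were Igfbp7, Cd36, Btg2, Sdpr and Palmd. Cd36, the fatty acid transporter, had 246 CPM at E14.5 and 69.8 CPM at E13.5 in LOF cells, and in controls 194 and 127 CPM at E14.5 against 41.5 and 29.2 CPM at E13.5. Every E14.5 library was above every E13.5 library. The log2 fold change in controls was 2.18 ± 0.38 (edgeR adjusted p = 0.0897), and 1.95 between replicate 2 of the stages, 2 libraries that are alike in eGFP, after adding 5 CPM. When all 6 libraries were fitted with genotype as a term, Cd36 passed at 1.96 ± 0.27 (edgeR adjusted p = 0.00774). In that fit 17 genes were higher at E14.5 (0.212%) and 4 lower (0.0498%) of 8029.

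Palmd and Sdpr followed the same order. Palmd, of palmdelphin, had 154 CPM at E14.5 and 32.9 CPM at E13.5 in LOF cells, and in controls 91.4 and 62.4 CPM at E14.5 against 19.7 and 7.96 CPM at E13.5. Sdpr, which shapes caveolae, had 719 against 314 CPM in LOF cells and 802 and 409 against 177 and 166 CPM in controls. For each gene all 3 E14.5 libraries were above all 3 E13.5 libraries. In controls alone the log2 fold changes were 2.54 ± 0.50 and 1.78 ± 0.33 (edgeR adjusted p = 0.111 and 0.0986), and with 6 libraries both passed (edgeR adjusted p = 0.0106 and 0.0246). With 3 inferred batches as a further term, stage rested on the replicate 2 libraries alone, 1 per stage. Only the log2 fold changes of that fit are given, 2.94 for Palmd and 1.30 for Sdpr. Taken directly between the same replicate 2 libraries, the log2 differences were 2.38 for Palmd and 1.28 for Sdpr.

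Btg2, an antiproliferative early response gene, had 137 against 150 CPM in LOF cells and 182 and 190 against 54.6 and 38.5 CPM in controls. The stages did not overlap in controls and were alike in LOF. Its log2 fold change in controls was 1.98 ± 0.36 (edgeR adjusted p = 0.0944), and with 6 libraries 1.14 ± 0.44 (edgeR adjusted p = 0.20).

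Igfbp7, a secreted protein of the vessel wall, had 644 against 326 CPM in LOF cells and 390 and 654 against 140 and 86.3 CPM in controls. Its log2 fold change was 2.21 ± 0.37 in controls (edgeR adjusted p = 0.0897) and 1.70 ± 0.37 with 6 libraries (edgeR adjusted p = 0.0801). In controls it was 2.59 without E14.5 control 1 and 1.64 without E14.5 control 2. Fabp4 had 475 against 160 CPM in LOF cells and 831 and 260 against 103 and 22.6 CPM in controls, where its log2 fold change of 3.15 had an adjusted p of 0.594 (edgeR), and was 2.19 without E14.5 control 1 and 3.65 without E14.5 control 2. The fit of 6 libraries also called Adamts1 and Adamts9, secreted proteases, at 2.13 and 1.93, Kitl, the ligand of Kit, at 1.72, and Zeb2, a repressor of epithelial genes, at 1.98. Between the replicate 2 libraries their log2 differences were 1.65 for Adamts1, 1.25 for Adamts9, 1.30 for Kitl and 2.15 for Zeb2. It called the keratinocyte genes Lgals7, Krt1 and Dmkn higher too, at 5.32, 4.96 and 7.03. The summed level of 6 keratinocyte markers in endothelial cells was 67 CPM in E14.5 and 26.7 CPM in E13.5 LOF, and 42.1 and 79.9 CPM in E14.5 against 32.8 and 41.1 CPM in E13.5 controls. That of 7 mesenchyme markers was 1099 and 296 CPM in LOF, and 506 and 873 against 221 and 368 CPM in controls; the part of either in these calls was not tested.

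Genes lower at E14.5 were fewer. Kcne3, a potassium channel subunit of tip cells, had 18.5 against 41.1 CPM in LOF cells and 8.96 and 7.49 against 50.2 and 46.4 CPM in controls. All E14.5 libraries lay below all E13.5 libraries. Its log2 fold change was -2.54 ± 0.50 in controls (edgeR adjusted p = 0.111). With 6 libraries it was -2.07 ± 0.39 (edgeR adjusted p = 0.0363). With 3 inferred batches as well, where stage rested on the replicate 2 libraries alone, it was -2.61. Without E14.5 control 1 the change in controls was -2.62. Nnat, an imprinted gene that was higher in lymphatic-like cells (367 CPM, against 55.9 CPM in the rest), had 50.5 against 115 CPM in LOF cells and 73.5 and 99.8 against 192 and 312 CPM in controls. It did not pass in the 4 controls (-1.60 ± 0.36, edgeR adjusted p = 0.262) but did with 6 libraries (-1.56 ± 0.28, edgeR adjusted p = 0.0273). In controls the change was -1.32 without E14.5 control 1, -1.97 without E14.5 control 2, where it passed (edgeR adjusted p = 1.98e-05), and -2.42 without lymphatic cells (edgeR adjusted p = 0.125). Bambi, a pseudoreceptor of BMP and TGF-beta signals, had 53.8 and 52.4 CPM in E14.5 controls against 140 and 96.9 CPM in E13.5 controls and did not pass. Also by smallest p, Tnnt1, a troponin of slow muscle, had 12.5 and 9.98 CPM in E14.5 controls against 26.2 and 59.7 CPM in E13.5 controls, and Tuba1a, a tubulin, 845 and 804 CPM against 1420 and 1393 CPM (edgeR adjusted p = 0.48 and 0.579). At least 10 UMIs of muscle markers were found in 2 cells of E14.5 LOF and 3 of E13.5 control 2; their part was not tested.

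**Figure D4:**
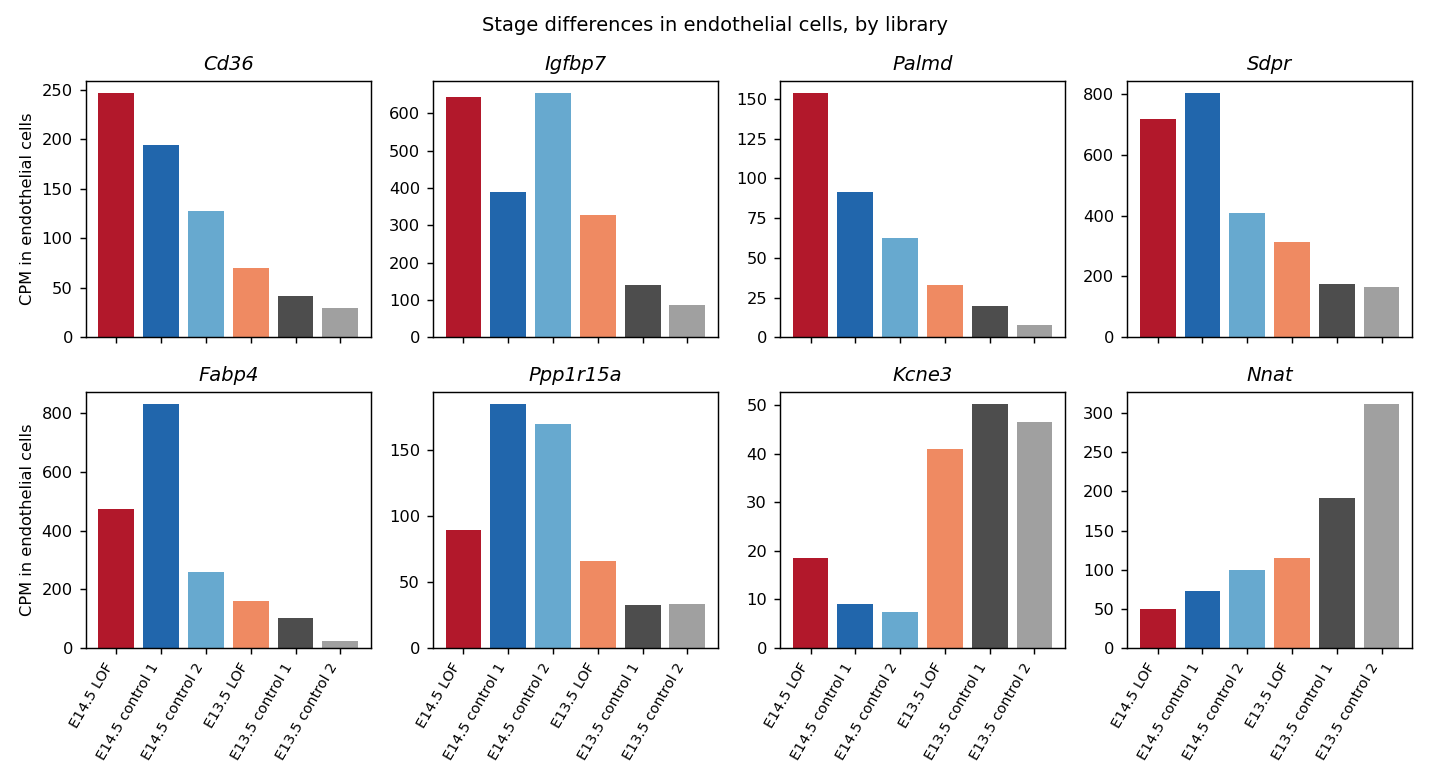
Level of 8 genes in endothelial cells of each library (CPM, 1 bar per library). Cd36, Igfbp7, Palmd, Sdpr and Fabp4 are higher, and Kcne3 and Nnat lower, in E14.5 than in E13.5 libraries of the same genotype; only Ppp1r15a passed the test in controls.

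None of the 24 gene lists held a gene that passed the stage test in controls. The capillary and lipid list had a median of 0.72 over 8 tested genes, the arterial list 0.35 over 12, endothelial identity -0.06 over 20 and hypoxia and glycolysis -0.42 over 10, beside 0.03 for all genes. In the last, 8 of 10 genes were lower at E14.5, among them Slc2a1, a glucose transporter, with 55.6 and 92.3 CPM in E14.5 controls against 155 and 109 CPM in E13.5 controls. Proliferation did not follow the stage. The summed level of the proliferation list was 2298 CPM in E14.5 and 1345 CPM in E13.5 LOF cells, and 2330 and 1517 CPM in E14.5 against 1330 and 2188 CPM in E13.5 controls, so the ranges overlapped. Mki67 alone had 309 CPM in E14.5 LOF and 309 CPM in E14.5 control 1, against 32.4 CPM in E14.5 control 2, 41.1 CPM in E13.5 LOF and 59.0 and 59.7 CPM in E13.5 controls. The same pair was high in Mki67 in mesenchymal cells, at 321 and 416 CPM against 49.5 to 87.3 CPM.

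Between LOF and control endothelial cells, the gene that passed was again of mast cells. With stage as a term, 1 of 8029 genes passed, lower in LOF (0.0125%), with 196 at an unadjusted p under 0.05. DESeq2 called 0, with 73 at an unadjusted p under 0.05. The gene was Tpsb2 of mast cells, with 1.03 and 0 CPM in E14.5 and E13.5 LOF cells, 107 and 175 CPM in E14.5 controls and 0 and 1.33 CPM in E13.5 controls, so its difference lay at E14.5 (log2 fold change -6.84 ± 0.81, edgeR adjusted p = 0.00217). Leaving out 1 library gave counts of 0 to 5, and leaving out the 39 cells with another type's transcripts gave 0.

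Reporter transcripts were compared between cell classes. eGFP stood at 10.3 CPM in endothelial cells of E14.5 LOF (exact 95% Poisson interval 4.94 to 18.9) and 20.5 CPM in E13.5 LOF (9.85 to 37.8). Controls had 8.07 and 7.49 CPM at E14.5 and 2.18 and 6.64 CPM at E13.5. In mesenchymal cells it was 318 and 359 CPM in E14.5 and E13.5 LOF, and in pericytes 283 and 357 CPM. Keratinocytes, which are not of the Pdgfra lineage, had 18.6 and 19 CPM in the LOF libraries, values within the endothelial intervals. tdTomato, the form before recombination, was at 12.4 and 4.11 CPM in LOF endothelial cells at E14.5 and E13.5, while control endothelial cells had 21.5 and 0 CPM at E14.5 against 0 and 5.31 CPM at E13.5. LOF keratinocytes had 60.7 and 943 CPM of it at E14.5 and E13.5, while control keratinocytes had 41.3 and 304 CPM at E14.5 against 1007 and 805 CPM at E13.5. Both reporter transcripts were thus low in endothelial cells, and a low eGFP level there came with no high tdTomato level. Cells with an eGFP UMI were 6.58% of endothelial cells and 7.87% of keratinocytes in E14.5 LOF, at medians of 10648 and 10738 UMIs per cell. In E13.5 LOF they were 26.5% of endothelial cells (12.9 to 44.4%), 9.33% of keratinocytes and 23.1% of macrophages, at medians of 13668, 16872 and 16756 UMIs. The endothelial share rests on 9 of 34 cells there. It was above that of keratinocytes (7.32 to 11.7%) beyond counting error, and not above that of macrophages (15.8 to 31.8%).

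The controls went against their label in replicate 2. Their mesenchymal cells held 95.7 CPM of eGFP at E14.5 and 137 CPM at E13.5, with a UMI in 52.1% and 65.9% of cells, against 5.42 and 2.96 CPM in replicate 1. Pericytes of replicate 2 had 12.5 CPM at E14.5 and 24.4 CPM at E13.5, well under the LOF values. tdTomato transcripts in keratinocytes, given above, were found in replicate 1 too. The genotype of the libraries labelled WT beyond that label, and whether beta-catenin was recombined in replicate 2, are not given in the sources used here. Log2 differences between LOF and control 1 alone, after adding 5 CPM, which leave replicate 2 out, are given below. Ctnnb1, the gene of beta-catenin, had 269 and 292 CPM in endothelial cells of E14.5 and E13.5 LOF, 265 and 267 in E14.5 controls and 341 and 261 in E13.5 controls (log2 fold change -0.07 ± 0.22). The labels do not give the floxed exons, and 3′ reads may lie outside them, so this level checks nothing about the deletion.

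**Figure D5:**
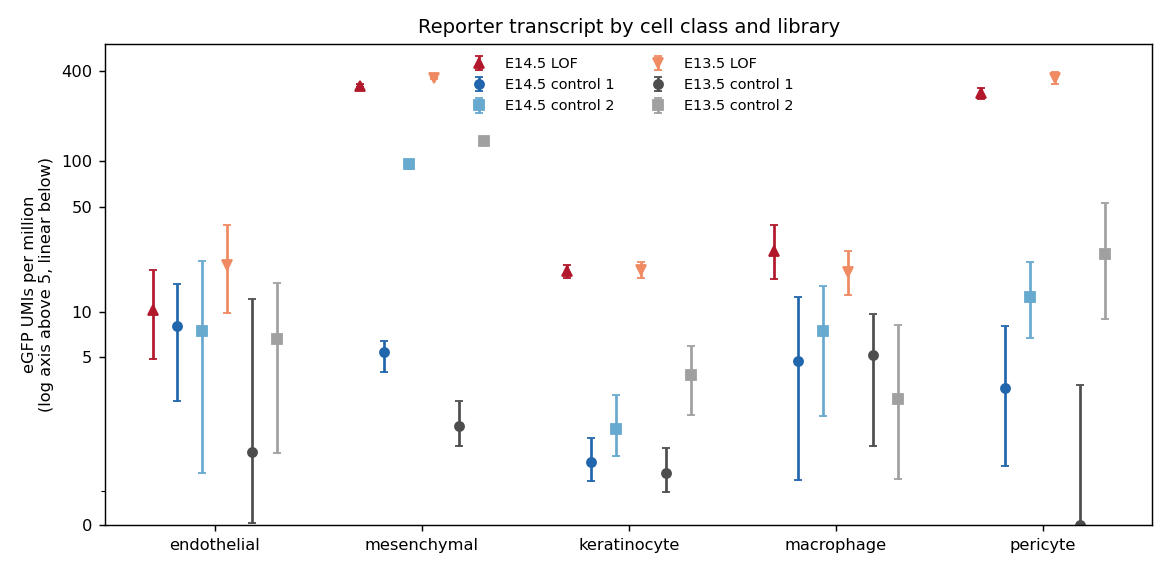
eGFP transcripts (CPM, axis linear to 5 and logarithmic above) by cell class and library, with exact 95% Poisson intervals. Mesenchymal cells and pericytes of the LOF libraries, and mesenchymal cells of replicate 2 of both controls, stand above all endothelial points.

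The genes nearest to the threshold that were higher in LOF were Ctla2a, Sparcl1, Tcf15, Palmd (log2 fold change 1.03) and Plagl1 (0.60), each with an adjusted p of 0.9997 (edgeR). Ctla2a, a protease inhibitor, had 253 and 382 CPM in E14.5 and E13.5 LOF cells, 187 and 125 CPM in E14.5 controls and 208 and 138 CPM in E13.5 controls. At each stage LOF was above both controls, and the log2 difference from control 1 was 0.43 at E14.5 and 0.86 at E13.5. Sparcl1, an anti-adhesive matrix protein, had 667 and 316 CPM in LOF cells, 389 and 247 in E14.5 controls and 238 and 207 in E13.5 controls (0.75 ± 0.23). Tcf15, a partner of Meox2 in capillary endothelium, had 154 and 226 CPM in LOF cells, 135 and 74.9 in E14.5 controls and 107 and 58.4 in E13.5 controls (0.95 ± 0.31). From control 1 the E14.5 and E13.5 differences were 0.77 and 0.40 for Sparcl1, 0.18 and 1.04 for Tcf15, 0.72 and 0.62 for Palmd and 0.68 and 0.49 for Plagl1. Genes were named only where LOF lay on the same side of both controls at each stage, so the sign of these differences was fixed.

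Those lower in LOF, also at an adjusted p of 0.9997 (edgeR), were Cda, Actb, Kbtbd11 (log2 fold change -1.45), Nnat (-1.02) and Cmtm8 (-1.76). Cda, cytidine deaminase, had 34.0 and 55.4 CPM in E14.5 and E13.5 LOF cells, 87.8 and 94.8 CPM in E14.5 controls and 91.8 and 115 CPM in E13.5 controls. Both LOF libraries were below all controls, and the log2 difference from control 1 was -1.25 at E14.5 and -0.68 at E13.5. Actb, of cytoplasmic actin, had 3599 and 6223 CPM in LOF cells, 5140 and 7264 in E14.5 controls and 12229 and 8183 in E13.5 controls. From control 1 the E14.5 and E13.5 differences were -0.51 and -0.97 for Actb, -1.28 and -1.21 for Kbtbd11, -0.50 and -0.72 for Nnat and -1.52 and -0.31 for Cmtm8. The same choice of genes fixed the sign of these differences too.

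The lymphatic list had a median log2 change of -0.94 with LOF over 9 tested genes, of which 7 were lower and 4 had an unadjusted p under 0.05, beside a median of -0.0043 for all genes. None passed. Prox1, the regulator of lymphatic fate, had 48.4 and 30.8 CPM in E14.5 and E13.5 LOF cells, 159 and 49.9 in E14.5 controls and 35.0 and 74.3 in E13.5 controls. Flt4, the receptor of VEGF-C, had 35.0 and 65.7 CPM in LOF cells, 113 and 79.9 in E14.5 controls and 61.2 and 133 in E13.5 controls, so at E13.5 LOF lay between the controls. Lyve1, a hyaluronan receptor, went the other way at E13.5, with 88.6 and 294 CPM in LOF cells, 248 and 147 in E14.5 controls and 24.0 and 115 in E13.5 controls. From control 1 the E14.5 and E13.5 differences were -1.62 and -0.16 for Prox1, -1.56 and 0.10 for Flt4 and -1.44 and 3.36 for Lyve1. The summed level of the list was 840 CPM in E14.5 and 2078 CPM in E13.5 LOF cells, and 2749 and 2356 CPM in E14.5 against 1625 and 4748 CPM in E13.5 controls. LOF was thus below both controls at E14.5, as in the lymphatic share above, and between the controls at E13.5, where its share was below both. Over 5 of the genes (Prox1, Lyve1, Flt4, Reln and Mmrn1), without Ccl21a, the sums were 291 CPM in E14.5 and 602 CPM in E13.5 LOF cells. Controls had 800 and 432 CPM at E14.5 against 238 and 561 CPM at E13.5. By these genes E13.5 LOF was above both controls of its stage, so the order at E13.5 depended on the genes summed. In these sums fewer lymphatic cells and less RNA per lymphatic cell cannot be told apart. The identity list had a median of 0.29 with 17 of 20 genes higher, and hypoxia and glycolysis -0.32 with 10 of 11 lower; no gene of either passed.

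Changes in endothelial cells were then set against those in mesenchymal cells of the same libraries, by an interaction term with library as a block. For stage, 194 of 12384 genes passed with edgeR (1.57%), 73 with the more upward change in endothelial cells (0.589%) and 121 with the more downward one (0.977%). Mesenchymal cells changed by the larger amount in 40 of the 73 and 88 of the 121. Cav1, the coat protein of caveolae, was an example. It had 869 and 1011 CPM in E14.5 and 887 and 395 CPM in E13.5 control endothelial cells, while control mesenchymal cells had 70.9 and 73.0 CPM at E14.5 against 14.4 and 10.1 CPM at E13.5 (difference of log2 changes -2.11 ± 0.17, edgeR adjusted p = 3.38e-32).

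Mef2c, Klf2, Eng and Ramp2, all known in vessels, also rose in mesenchymal cells. For Eng the classes moved in opposite directions, with log2 changes of -0.74 in endothelial and 0.77 in mesenchymal cells. So it was for Ramp2, with 315 and 397 CPM at E14.5 against 526 and 510 CPM at E13.5 in control endothelial cells. Control mesenchymal cells had 69.8 and 98.2 CPM of Ramp2 against 46.3 and 37.3 CPM. Klf2, a factor of flow response, had 211 and 262 CPM at E14.5 against 328 and 111 CPM at E13.5 in control endothelial cells, and 64.5 and 106 CPM against 26.9 and 17.0 CPM in mesenchymal cells (-1.83 ± 0.21, edgeR adjusted p = 1.68e-14). In the basement membrane list 7 of 15 genes passed, all with the more downward change in endothelial cells. Upward, Tspan13 held at 325 and 379 CPM against 435 and 308 CPM in endothelial cells, while in mesenchymal cells it had 10.3 and 9.16 CPM at E14.5 against 36.5 and 43.6 CPM at E13.5 (1.80 ± 0.20, edgeR adjusted p = 4.11e-16). Dkk2, a secreted Wnt modulator that led in arterial-like cells, moved in both. It had 40.3 and 54.9 CPM at E14.5 against 19.7 and 7.96 CPM at E13.5 in endothelial cells, and 41.9 and 22.3 CPM against 112 and 84.2 CPM in mesenchymal cells (3.20 ± 0.40, edgeR adjusted p = 1.10e-12). Without E14.5 control 1 the differences were -2.05 for Cav1, -2.08 for Klf2, 2.01 for Tspan13 and 4.07 for Dkk2.

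For genotype, 153 of 13526 genes passed (1.13%), 62 with the more upward change in endothelial cells (0.458%) and 91 with the more downward one (0.673%). Again mesenchymal cells changed by the larger amount in 41 of the 62 and 57 of the 91. Emcn had 6.93 and 7.92 CPM in LOF mesenchymal cells at E14.5 and E13.5, against 0.509 to 0.824 CPM in the 4 controls, while in endothelial cells, with the levels given above, LOF was above both controls of its stage by less and the ranges over both stages overlapped (-3.13 ± 0.27, edgeR adjusted p = 2.20e-27). The difference for Emcn was -3.03 without E14.5 LOF and -3.13 without E14.5 control 1. Lmo2, Meox1 and Meox2 were also higher in LOF than in control mesenchymal cells at both stages. Of 18 proliferation genes, Cdk1, Ccna2, Birc5, Rrm2 and Cdc20 passed, with the more upward change in endothelial cells. The summed endothelial level of that list, given above, lay between the controls in LOF at each stage. Summed mesenchymal levels were 2207 and 1554 CPM in E14.5 and E13.5 LOF. In controls they were 3085 and 2540 CPM at E14.5 and 2252 and 2893 CPM at E13.5. Of 17 fetal growth genes, Igf2, H19, Mest and Grb10 passed, with the more downward change in endothelial cells. Both classes had higher sums of that list in LOF. Endothelial sums were 12297 and 9186 CPM in E14.5 and E13.5 LOF, 10903 and 7541 in E14.5 controls and 9086 and 8518 in E13.5 controls. Mesenchymal sums were 22992 and 22574 CPM in LOF, 16139 and 13099 in E14.5 controls and 16532 and 15146 in E13.5 controls. Without 1 library the stage count lay between 104 and 183, and the genotype count fell to 57 without E14.5 LOF and 79 without E13.5 LOF, against 114 or more without a control. This model gave both classes the same spread, although a sum held 34 to 81 endothelial cells against 871 to 3420 mesenchymal cells. Its p-values were nearly those of a normal distribution at the printed SE, so that spread was taken almost wholly over all genes. They say little about each gene's own spread between libraries. With limma on the log2 ratio of the classes in each library no gene passed, for stage (955 at an unadjusted p under 0.05) or for genotype (772).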

How the data were processed

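The matrices the authors deposited for the 6 libraries hold UMI counts, 28000 gene rows by cell barcodes, not normalized. Per the submitters' processing notes Cell Ranger and Seurat were used with mm10 (GRCm38), and versions are not given in the sources used here. All barcodes of a library, taken before the quality limits, hold 53461986 to 86446575 UMIs in sum.

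The members and gene lists were chosen with earlier results of these data known. Members, mesenchymal cells (Pdgfra detected, at least 20 UMIs over Col1a1, Col1a2 and Col3a1), keratinocytes, macrophages and pericytes were taken by rules on UMIs, with doublets kept in the main results. Counts were summed per library and class and divided by the sum to give CPM. Tests used edgeR 4.0.16 (quasi-likelihood, robust, TMM, filterByExpr) in R 4.3.3, with DESeq2 1.42.0 and limma 3.58.1 as alternatives. Only the main edgeR fits were also run on simulated data, and the alternatives were not. Stage was tested in 4 control libraries, genotype in 6 with stage as a term, and interactions with library as a block. An adjusted p under 0.05 passed. Those of the 10 rule genes that passed the count filter were in the tests and the adjustment, but only their values are given. SE belongs to the log2 fold change.

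Named genes are those of the lists with the highest CPM or a textbook vessel role, and for each test up to 10 per direction by fold change among calls with a mean log2 CPM no lower than 5, groups that do not overlap and a member level of at least 1 part in 3 of the highest other class. Where under 5 passed, up to 5 by smallest p follow. Predicted, ribosomal, mitochondrial, haemoglobin and histone genes were left out of this rule. The genes Hist1h1b, Gm42418 and Igf2, the genes of the 6-library fit and those of subgroups and other cell types were named after their values were seen.

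Subgroups came from 1500 variable genes, 15 principal components, 10 neighbours and Leiden resolution 0.6 (leidenalg 0.10.2, igraph 0.11.9) with no batch correction. Doublets were scored from simulated pairs at 0.8% per 1000 cells. Further tools were Python 3.11.15, numpy 2.4.6, scipy 1.17.1, pandas 2.3.3, scikit-learn 1.9.0 and matplotlib 3.10.9.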

Additional observations from a re-analysis of the deposited data

Results flagged for a closer look

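Differences between endothelial and mesenchymal cells of the same libraries in how a gene changed with stage or genotype are given here as the endothelial minus the mesenchymal log2 change, from edgeR's interaction term. No group held enough libraries to look for a library far from the others.

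With stage, the larger positive differences, in which the endothelial change lay above the mesenchymal one, were those of Dkk2 (3.20), Foxp1 (2.41), Jarid2 (2.27), Dnm3 (2.26), Tes (2.16), Zfhx3 (2.06), Fbln5 (1.95), Ly6e (1.88), Tgfb2 (1.81) and Tspan13 (1.80). For Foxp1, a forkhead repressor, control endothelial cells had 158 and 69.9 CPM at E14.5 against 78.6 and 81.0 CPM at E13.5, and mesenchymal cells 22.5 and 18.8 CPM against 80.0 and 81.3 CPM.

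The larger negative differences with stage, in which the endothelial change lay below the mesenchymal one, whichever way each went, were those of Mef2c (-2.35), Ammecr1 (-2.21), S100a16 (-2.15), Rasgrp2 (-2.12), Cav1 (-2.11), Sema6d (-2.10), Eng (-1.87), Gadd45g (-1.85), Klf2 (-1.83) and Ramp2 (-1.66). For Mef2c, a transcription factor of muscle and vessels, control endothelial cells had 306 and 180 CPM at E14.5 against 184 and 163 CPM at E13.5, and mesenchymal cells 75.9 and 79.6 CPM against 13.7 and 9.45 CPM.

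With genotype, positive differences were those of Dnm3 (1.41), Cav1 (1.40), Ammecr1 (1.20), Itga6 (1.16), Anln (1.06), Tmem100 (1.04), Tk1 (0.93), Ddah1 (0.92), Spc24 (0.91) and Glul (0.91). Negative differences were those of Emcn (-3.13), Sh3gl3 (-2.34), Meox1 (-2.22), Ccng1 (-1.84), Lmo2 (-1.68), Adamts1 (-1.44), Pdpn (-1.41), Tm4sf1 (-1.25), Meox2 (-1.25) and Creb5 (-1.23). For Meox1, a homeobox gene of somite and mesenchyme, endothelial cells had 47.4 and 34.9 CPM in E14.5 and E13.5 LOF, 33.2 and 34.9 in E14.5 controls and 35.0 and 19.9 in E13.5 controls. Mesenchymal cells had 32.9 and 146 CPM in E14.5 and E13.5 LOF, 5.81 and 3.82 in E14.5 controls and 36.5 and 12.1 in E13.5 controls. None of these differences passed with limma on the ratios.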

How the results depend on the processing

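Counts of genes past the edgeR test moved with most settings. The stage count of 4 was 12 with DESeq2, 78 without a filter on low counts, 7 without doublets, 12 to 623 without 1 library, 21 with all 6 libraries and 108 with 3 inferred batches. The count of 623 was that without E14.5 control 2. It was 0 without cells with another type's transcripts, without lymphatic cells, and without both, settings chosen after seeing the data. The genotype count of 1 was 0 with DESeq2, 18 without a filter, 0 to 5 without 1 library, 33 with 3 inferred batches, and 0 in the same settings of left-out cells. Of the interactions, the stage count of 194 was 42 with DESeq2, 104 to 183 without 1 library and 0 with limma on ratios, and the genotype count of 153 was 52 with DESeq2, 57 to 181 without 1 library and 0 with limma on ratios.

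Control replicates share numbers given by order of deposit. Replicate 2 minus replicate 1 correlated between the stages at 0.109 over 6409 genes, in only 2 pairs, so the numbers were not taken to pair the libraries. With the replicate block 12 genes passed for stage and 2 for genotype.

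Thinned to 3000 UMIs, the venous share was 28.9% and 41.2% in E14.5 and E13.5 LOF, 43.2% and 23.5% in E14.5 controls and 20.5% and 45.3% in E13.5 controls. The cycling share was 40.8% and 26.5% in LOF, 50.6% and 20.6% in E14.5 controls and 25.6% and 34.4% in E13.5 controls. The arterial (35.5%, 29.4%, 25.9%, 32.4%, 30.8% and 21.9%), tip (7.89%, 17.6%, 2.47%, 2.94%, 23.1% and 12.5%) and lymphatic shares (2.94% in E13.5 LOF and 14.1% in E13.5 control 2, from 14.7% and 32.8%) moved too. The cause was not tested. For the named genes that passed a test, 431 values under an alternative kept their direction and side of the threshold, 117 kept the direction only, and none turned. Most of these genes were picked for large changes. Genes named without passing, Cd36, Palmd and Kcne3 among them, are not in that count. With 34 to 81 cells per library, genes of low counts could not be tested.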
